A study of Mus musculus with 288 samples.

Results

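The CC and CXC chemokine ligands were taken as every row of the deposited tables whose symbol is Ccl or Cxcl followed by a number and at most 1 letter. This rule found 38 of 35904 genes, 25 of them CC and 13 CXC ligands, and each was read in all 288 libraries. The animals were male wild-type C57BL/6J mice, 8 weeks old, kept in normoxia or exposed to intermittent hypoxia (IH, cycles between 21% and 8% O2) for 7 days during the light phase of a 12-hour light cycle. Both groups then spent 2 days in constant normoxic darkness, and lung, liver, kidney, muscle, heart and cerebellum were collected on the second of these days at 8 time points 3 hours apart, with 3 libraries per tissue, treatment and time point. All libraries were therefore made after IH had ended, and every animal of both groups carried the same genotype. Values are TPM (transcript abundance scaled to a fixed library total), which are scaled for transcript length and can be set side by side between genes, and n is 24 libraries per tissue and treatment unless stated.

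Chemokines are small secreted proteins that bind receptors on leukocytes and guide where these cells move. Several CC ligands (Ccl2, Ccl7, Ccl8, Ccl12) attract monocytes, Ccl3, Ccl4 and Ccl5 attract T cells and other leukocytes, and CXC ligands with the motif Glu-Leu-Arg attract neutrophils. A homeostatic group is made without inflammation: Ccl19 and the Ccl21 copies bring T cells and dendritic cells into lymphoid tissue, Ccl25 is a thymus and gut ligand, and Cxcl12 retains cells in bone marrow and many other tissues. Whole tissue was sequenced, so fewer cells of a type and less RNA per cell cannot be told apart.

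Genome positions were found for 37 ligands in GENCODE M21 (GRCm38), and Ccl21d was placed by RefSeq alone. The family lies in clusters, with 12 ligands on chromosome 11, 11 on chromosome 5 and 6 on chromosome 4. Near-identical copies matter for what follows. Ccl21a is at chr4:42772860-42773993 on the minus strand, Ccl21b at chr4:42255767-42256432 on the plus strand, Ccl21d at chr4:41903613-41904743, and Ccl21c on an unplaced scaffold. The coding sequences of Ccl21a and Ccl21b are 402 bases each and are 99.5% identical, with the substitutions T84A and C194T, written as the Ccl21a base, the position from the first coding base and the Ccl21b base. Of 372 words of 31 bases in the Ccl21b transcript, 310 (83.3%) also occur in that of Ccl21a, so reads may be split between these copies. The transcripts of Ccl21c and Ccl21d were not compared here.

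Upstream sequence is shown for 3 ligands to which the results return. Each is the 250 bases before the RefSeq start of the gene in GRCm38.p6, written 5′ to 3′ on the strand of the gene. The Ccl21a window (chr4:42773992-42774241, minus strand) and the Ccl21d window (chr4:41903363-41903612, plus strand) are offset by 1 base, and over the 249 bases compared they differ at 1, which is in capitals. The Cxcl15 window (chr5:90794284-90794533, plus strand) belongs to the most abundant ligand of these data, and its capitals mark the TATA box letters TATAAA, which begin at position -27.
Ccl21a: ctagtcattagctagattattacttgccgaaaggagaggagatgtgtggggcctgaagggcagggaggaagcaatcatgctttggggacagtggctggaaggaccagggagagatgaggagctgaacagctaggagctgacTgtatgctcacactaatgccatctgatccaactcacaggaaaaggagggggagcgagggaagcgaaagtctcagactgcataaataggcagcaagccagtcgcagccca
Ccl21d: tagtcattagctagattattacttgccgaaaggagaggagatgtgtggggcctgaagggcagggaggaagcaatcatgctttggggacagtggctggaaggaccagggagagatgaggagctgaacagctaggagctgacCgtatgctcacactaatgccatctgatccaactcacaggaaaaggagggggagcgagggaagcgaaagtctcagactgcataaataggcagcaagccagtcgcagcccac
Cxcl15: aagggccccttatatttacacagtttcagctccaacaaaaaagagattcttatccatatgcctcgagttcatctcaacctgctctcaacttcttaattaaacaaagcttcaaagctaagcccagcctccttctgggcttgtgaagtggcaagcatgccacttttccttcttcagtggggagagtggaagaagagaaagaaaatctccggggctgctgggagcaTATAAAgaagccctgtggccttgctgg
The letters TATAAA, searched on both strands, occurred in 9 of 32 upstream windows of 26 ligands (28.1%), against 12.4% of 32851 windows of all genes. The clock-factor letters CACGTG occurred in 1 ligand window (6.02% of all windows), and ACGTG, which also lies within CACGTG and is the core of the hypoxia response element, in 4 (16.6% of all windows). Neither TTATGTAA nor TTACGTAA, letters bound by clock output factors, was in any ligand window (0.819% and 0.113% of all windows). These are matches of letters and say nothing of factor binding.

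Each tissue had its own leading ligands in normoxia. The lung held the largest summed ligand level, 1463 ± 270 TPM (SD), and 3 ligands made up 64.5% of it: Cxcl15 (lungkine), a neutrophil attractant of airway epithelium, at 672 ± 234 TPM, Ccl6 at 159 ± 31.9 TPM, and Ccl21a at 112 ± 23.3 TPM. In the cerebellum Ccl27a, a ligand best known from skin, stood at 220 ± 44.5 TPM, ahead of Cxcl14 at 44.3 TPM and Cxcl12 at 21.1 TPM. In the liver Cxcl12 led at 132 TPM, followed by Ccl9 at 63.0 TPM and Ccl27a at 19.1 TPM. In the kidney the order was Cxcl12 (74.7 TPM), Cxcl16 (33.6 TPM), a ligand made as a membrane-bound protein, and Ccl27a (27.8 TPM). Muscle was led by Cxcl14 (121 TPM), Cxcl12 (59.5 TPM) and Ccl6 (54.7 TPM), and heart by Ccl21a (48.6 TPM), Cxcl12 (45.1 TPM) and Ccl6 (32.0 TPM). Without the normoxia heart libraries with thymocyte transcripts, described below, the Ccl21a mean was 42.2 TPM. Cxcl12 was thus among the first 3 in every tissue but the lung.

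**Figure D1:**
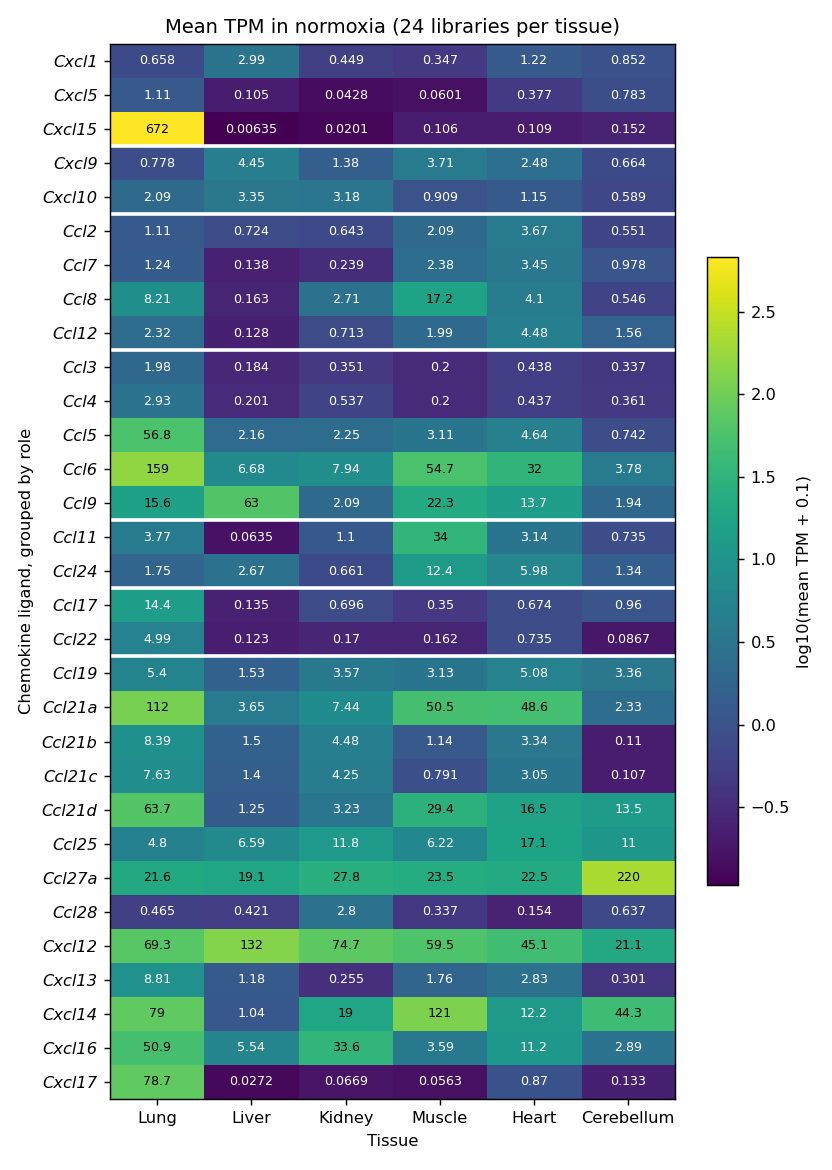
Mean TPM in normoxia of 31 chemokine ligands (rows, grouped by role with white lines between groups) in 6 tissues (columns), 24 libraries each; colour is log10 of mean TPM + 0.1 and the number in each cell is the mean. Cxcl15 stands at 672 TPM in lung and at 0.152 TPM or less elsewhere, Ccl27a at 220 TPM in cerebellum, and the heart mean of Ccl25 (17.1 TPM) rests on a few libraries described in the text.

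Of the 38 ligands, 31 reached a mean of 1 TPM in at least 1 tissue in normoxia, and 23 of these were higher in 1 tissue than in each of the other 5 (limma on log2(TPM + 0.5), adjusted p of 0.05 and 1.5-fold), against 59.5% of 18080 genes tested. The other 7 (Ccl1, Ccl20, Ccl26, Ccl27b, Cxcl11, Cxcl2 and Cxcl3) stayed under a mean of 1 TPM in every tissue, and none had a library above 2.56 TPM. Lung held 12 of the 23 (22.1% of all genes were highest in lung), muscle 4 (4.62%), liver 3 (4.55%), heart 2 (1.07%), kidney 1 (6.22%) and cerebellum 1 (21% of all genes).

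The lung ligands spanned several roles. Cxcl15 was higher than in the next tissue by 10.0 on the log2 scale, and its normoxia mean was 0.152 TPM or less in each of the other 5, where neighbours in the order of levels did not differ beyond their spread. Cxcl17, an epithelial ligand of mucosa, was higher by 6.66, Ccl5 by 4.07, and the CCR4 ligands Ccl17 and Ccl22 by 3.44 and 2.89. Ccl4 (1.68), Ccl6 (1.53), Cxcl13 (1.48), a B cell attractant, Ccl3 (1.34), Ccl21a (1.16), Ccl21d (1.11) and Cxcl16 (0.60) completed the group, and below lung the Ccl21a levels of muscle and heart did not differ beyond their spread. When levels were first scaled by ratios over tissues, Ccl21a, Ccl21d, Ccl3, Cxcl13 and Cxcl16 no longer passed, while Ccl19, Ccl7, Cxcl9 and Cxcl10 then did, for 22 in all.

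The eosinophil attractant Ccl11 (eotaxin) was a muscle ligand, at 34.0 ± 7.72 TPM against 3.77 TPM in the next tissue, lung (log2 difference 3.02). Muscle also led for Ccl24 (log2 difference from the next tissue 0.98), another eosinophil attractant, for Ccl8 (0.85) and for Cxcl14 (0.59). Heart led for the monocyte attractants Ccl12 (0.82) and Ccl2 (0.66), at 4.48 TPM and 3.67 TPM. Liver led for Ccl9 (1.48), Cxcl1 (0.97) and Cxcl12 (0.82), for which kidney and lung came next and did not differ from each other. Kidney led for Ccl28, a mucosal ligand, at 2.80 TPM against 0.637 TPM in cerebellum, and cerebellum led for Ccl27a (2.95). The remaining levels of Ccl27a lay between 19.1 and 27.8 TPM in the other 5 tissues. Of ligands with no single leading tissue, Ccl19 did not differ beyond its spread between lung (5.40 TPM) and heart (5.08 TPM).

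Some libraries carried transcripts of other tissues, and they touch the heart values. In 6 heart libraries (2 normoxia, 4 IH) the summed thymocyte markers were 29.7 to 1023 TPM, against 0.178 to 1.40 TPM in the other 42. The 4 IH libraries were replicates 1, 2 and 3 at 10:30 and replicate 2 at 16:30, so after IH these transcripts cannot be told apart from time of day. Ccl25, which attracts thymocytes and is made by thymic epithelium, read 9.28 to 243 TPM in these 6 libraries and 0.97 to 3.34 TPM in the other 42, with no overlap. Its heart mean in normoxia was 17.1 ± 54.1 TPM with them and 2.01 ± 0.544 TPM (n = 22) without them. Ccl5 read 1.02 to 38.6 TPM in the 6 and 0.436 to 5.10 TPM in the others, and Ccl22 up to 9.35 TPM against at most 0.253 TPM. Ccl21a read 50.6 to 148 TPM in the 6 and 25.8 to 67.5 TPM in the others. Its heart mean in normoxia was 48.6 ± 24.8 TPM with them and 42.2 ± 9.13 TPM (n = 22) without them. Its order beside Cxcl12 in heart, and its comparison with muscle, were read with these libraries included. A set of 6 heart libraries (4 normoxia, 2 IH) held 270 to 2002 TPM of summed lung markers, and 2 of these, normoxia replicate 3 at 7:30 and at 19:30, are also thymocyte libraries and carry the highest Ccl25, Ccl5 and Ccl22 values. In the 4 thymocyte libraries with few lung markers, Ccl25 read 9.28 to 73.8 TPM, Ccl5 1.02 to 8.65 TPM and Ccl22 0.0572 to 2.09 TPM. In the lung marker set Cxcl17 read 1.13 to 9.29 TPM, and at most 0.361 TPM in the rest. The count of 23 ligands with a leading tissue was the same without the thymocyte libraries. In 1 liver library (IH, 13:30, replicate 2) and 1 cerebellum library (IH, 1:30, replicate 3) the defining markers of the labelled tissue summed to 1098 and 332 TPM, against medians of 54043 and 3764 TPM, while heart markers read 5317 and 5917 TPM. No count of called ligands changed without these 2.

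Across tissues the response of the ligands to IH was tested 121 times, and 12 tests in 10 ligands and 3 tissues passed an adjusted p of 0.05 with a 1.5-fold change (limma on log2 of TPM scaled per library, adjusted over all genes of the tissue). Of the 38 ligands, 31 had a mean of at least 1 TPM in at least 1 tissue and were tested, 10 of them in all 6 tissues, and 7 were tested in none. The lung held 8 of the 12 calls, the heart 3 and the liver 1. Near-identical Ccl21 copies are counted separately in these numbers.

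In the lung 8 of 28 ligands tested were called, 1 higher and 7 lower after IH, while 13.5% of all 15426 genes were called, 9.12% higher and 4.39% lower. These counts take the near-identical copies Ccl21b and Ccl21c as separate ligands. Summed as 1 row, an alternative described below, the 4 Ccl21 copies were not called in lung (log2 difference -0.23). The T cell attractants Ccl5 and Ccl4 fell, as did the CCR4 ligand Ccl22, the epithelial ligands Cxcl15 and Cxcl17, and the copies Ccl21b and Ccl21c, and Ccl25 rose (Ccl22 and Cxcl17 changed sign when genes detected per library entered the model). Counting every ligand, 5 lay above 0 and 23 below, and the median log2 difference was -0.37 for ligands and -0.08 for all genes. The adjusted p alone was passed by 20 of 28 ligands (3 higher, 17 lower), against 70.4% of all genes.

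Ccl5 and Ccl4 had the largest falls of single-copy ligands in the lung. Ccl5 (RANTES) read 23.6, 53.4 and 96.1 TPM (lowest, median, highest) in normoxia and 16.8, 34.7 and 54.3 TPM after IH. Its mean was 56.8 ± 17.8 TPM in normoxia and 34.2 ± 9.10 TPM after IH, 0.499 of the normoxia level on the scaled values (SE 0.118 on log2, limma adjusted p = 3.88e-10), and IH was lower at all 8 time points. The groups overlapped, since 21 of 24 IH libraries lay within the normoxia range. Ccl4 (MIP-1 beta) read 1.24, 2.58 and 5.45 TPM in normoxia and 0.582, 1.65 and 2.90 TPM after IH. It fell by 0.90 on the log2 scale (SE 0.131, limma adjusted p = 5.28e-08), again at all 8 time points, and 6 IH libraries lay below the lowest normoxia library. Ccl3 (log2 difference -0.52) passed the adjusted p but not the fold threshold.
Ccl6 went the other way: its mean was 159 ± 31.9 TPM in normoxia and 260 ± 155 TPM after IH, and 17 of 24 IH libraries lay above the highest normoxia library. On the scaled values this was a log2 difference of 0.33 (limma adjusted p = 0.0105), short of 1.5-fold.

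Cxcl17, Cxcl15 and Ccl22 were called lower as well. Cxcl17 read 59.8, 75.2 and 139 TPM in normoxia and 18.9, 62.8 and 95.8 TPM after IH. The log2 difference was -0.83 (SE 0.164, limma adjusted p = 1.85e-05), with 11 of 24 IH libraries below the lowest normoxia library and the rest within the normoxia range. Cxcl15 read 322, 684 and 1029 TPM in normoxia and 224, 449 and 1056 TPM after IH. Its log2 difference was -0.65 (SE 0.170, limma adjusted p = 0.000723), and the groups overlapped over most of their range. Ccl22, which attracts T helper 2 and regulatory T cells through CCR4, read 3.66, 4.93 and 6.78 TPM in normoxia and 1.57, 4.16 and 9.24 TPM after IH (log2 difference -0.59, limma adjusted p = 5.48e-06). In it 11 IH libraries lay below all of normoxia and 1 above. Ccl17, the other CCR4 ligand, had a log2 difference of -0.49, not called.

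Ccl25 was the only ligand called higher in lung. It read 3.26, 4.79 and 6.14 TPM in normoxia and 4.95, 9.05 and 19.5 TPM after IH, and 21 of 24 IH libraries lay above the highest normoxia library. The log2 difference of scaled values was 0.59 (SE 0.0952, limma adjusted p = 4.80e-07), at the 1.5-fold threshold, and IH was higher at 8 of 8 time points. Ccr9, its receptor, was at 0.986 TPM in normoxia and 1.82 TPM after IH (log2 difference 0.35, limma adjusted p = 0.00277), below 1.5-fold.

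**Figure D2:**
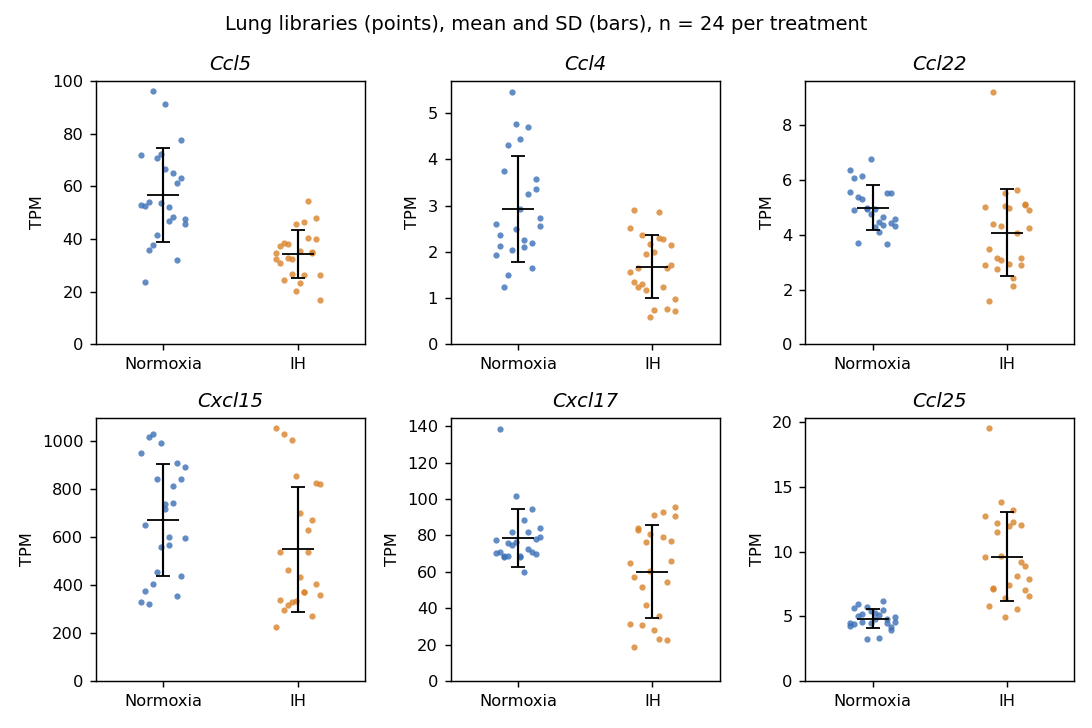
TPM of 6 ligands in each lung library (points) in normoxia and after IH, with mean and SD (bars), 24 libraries per treatment; each panel has its own linear axis from 0. Ccl5 and Ccl4 are shifted down after IH, Cxcl17 and Ccl22 spread to values below all normoxia libraries, and 21 of 24 IH libraries of Ccl25 lie above the highest normoxia library.

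The remaining lung ligands were described by role. All 4 monocyte attractants (Ccl2, Ccl7, Ccl8, Ccl12) passed the adjusted p on the lower side, with log2 differences of -0.49 to -0.30, and none was 1.5-fold. Of all lung genes 70.4% passed the adjusted p alone, in either direction. Of the 3 CXCR3 ligands, which are interferon-induced attractants of activated T cells, only Cxcl10 was abundant enough to be tested, with a log2 difference of -0.51, not called. Neither eosinophil attractant tested passed (Ccl11 -0.15, Ccl24 0.16), and of 5 neutrophil attractants 2 were tested. Among 14 homeostatic ligands 12 were tested, 1 was called higher and 3 lower (9.12% and 4.39% of all genes). The 3 lower ones included the near-identical copies Ccl21b and Ccl21c.

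Chemokine receptors were read beside their ligands. Of 17 receptors tested in lung, the neutrophil receptor Cxcr1 was called higher (log2 difference 1.08), and 4 were called lower: the scavenging receptors Ackr3 (-0.75) and Ackr4 (-0.68), the fractalkine receptor Cx3cr1 (-0.71) and Ccr7 (-0.65), which binds Ccl19 and Ccl21. The median of the 17 was -0.32, and 13.5% of all lung genes were called. No receptor was called of 2 tested in liver, 6 in kidney, 8 in muscle, 9 in heart and 9 in cerebellum. In these tissues 3.66%, 0.783%, 0.374%, 2.95% and 2.64% of all genes were called. Of the 4 chemokines outside the naming rule, the platelet ligands Pf4 (-0.63) and Ppbp (-0.63) were called lower in lung.

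Some cell markers and library properties also differed between the treatments in the lung. The 6 lung epithelial markers summed to 174077 ± 23192 TPM in normoxia and 127191 ± 56562 TPM after IH, with 5 of 6 called lower (Sftpc -0.79, Scgb1a1 -1.01). Of 8 T cell markers 2 were called lower (Cd3g -0.62, Trac -0.76), and the summed level ranged from 34.7 to 81.8 TPM in normoxia and from 26.1 to 95.7 TPM after IH. B cell markers were called lower in 3 of 8, macrophage markers in 2 of 8, and of 7 neutrophil markers tested Csf3r was called higher (0.72). Heart muscle markers summed to 442 ± 137 TPM in normoxia and 685 ± 196 TPM after IH, with Tnni3 called higher (0.60). Skeletal muscle markers summed to 15.9 to 485 TPM in normoxia and to 24.8 to 839 TPM after IH, with Ckm (0.86) and Atp2a1 (1.15) called higher. The number of genes detected in a lung library was 22694 ± 737 in normoxia and 25455 ± 1529 after IH. The part of these in the ligand differences was not tested, other than through the following fits.

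Scaling set how many lung ligands were higher or lower. With TPM as deposited the median of all genes moved by 0.28, to a log2 difference of 0.21, and 11 ligands lay above 0 and 17 below. Then 7 were called, 3 higher (Ccl25 0.87, Ccl6 0.63, Ccl27a 0.60) and 4 lower (Ccl21b -1.95, Ccl21c -1.82, Ccl5 -0.70, Ccl4 -0.66), while Cxcl17 (-0.53), Cxcl15 (-0.35) and Ccl22 (-0.32) were not. With genes detected per library added to the model, 8 were called and all were lower: Ccl12, Ccl17, Ccl3, Ccl4, Ccl5, Ccl7, Ccl8 and Cxcl10. In that fit Ccl25 (0.02), Cxcl15 (-0.36) and Ccl21b (-0.39) lost their calls, and Ccl22 (0.04) and Cxcl17 (0.07) changed sign. Ccl4 and Ccl5 were called lower in every alternative run.

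**Figure D3:**
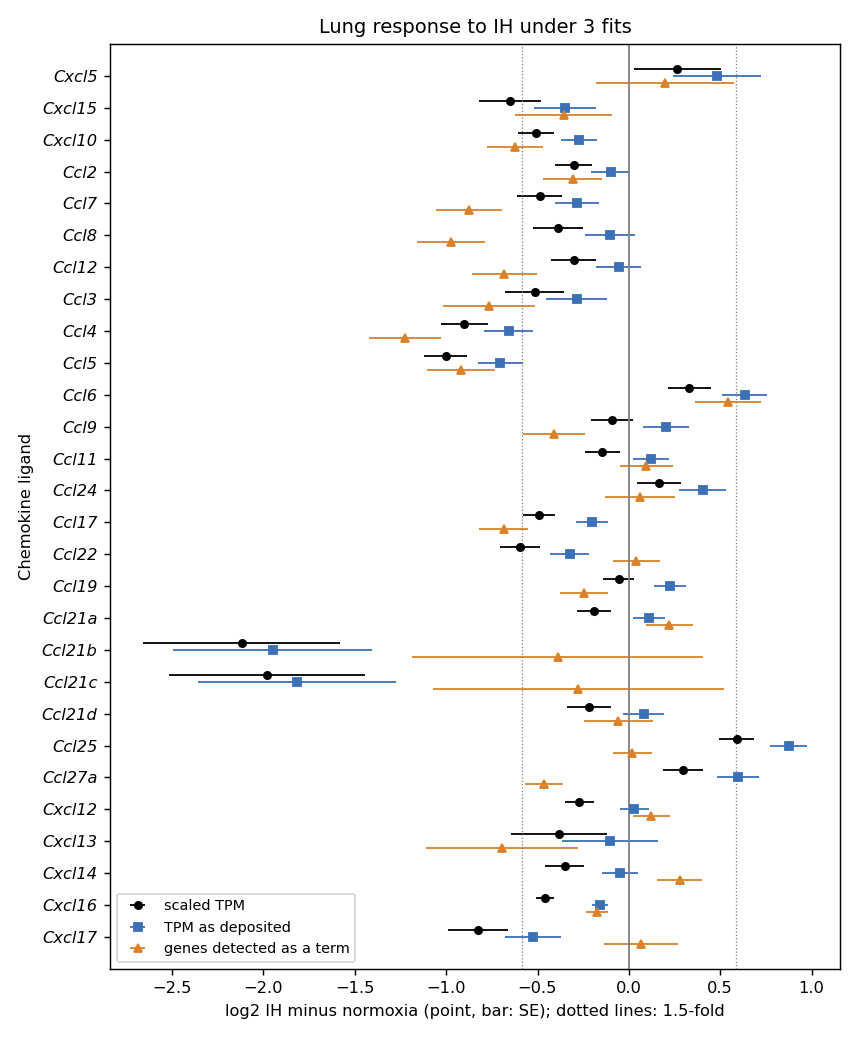
Log2 difference of IH from normoxia in lung for 28 ligands (rows), with its SE as a bar, under 3 fits: scaled TPM (black circles), TPM as deposited (blue squares) and scaled TPM with genes detected per library added to the model (orange triangles); dotted lines mark 1.5-fold. Ccl4 and Ccl5 lie beyond 1.5-fold on the lower side under all 3, while Cxcl17 and Ccl22 move across 0 in the last.

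In the heart 3 of 23 ligands were called, 2 higher and 1 lower (2.95% of 12779 genes, 1.1% higher and 1.85% lower), and all were copies of Ccl21. Summed as 1 row, the 4 Ccl21 copies were not called in heart (log2 difference 0.28). Ccl21b rose, with a mean of 3.34 ± 4.42 TPM in normoxia and 13.7 ± 8.63 TPM after IH (log2 difference 2.40), and Ccl21c rose with it (2.43). Ccl21d fell, from 16.5 ± 6.92 TPM to 9.63 ± 9.86 TPM (-1.92). Ccl21a read 48.6 ± 24.8 and 53.9 ± 8.74 TPM. In the lung Ccl21b and Ccl21c went the other way. Ccl21b had a median of 6.44 TPM in normoxia and 0.104 TPM after IH (log2 difference -2.12, SE 0.538, limma adjusted p = 0.000542). Ccl21c followed (-1.98, limma adjusted p = 0.00113), while Ccl21d (-0.22, limma adjusted p = 0.0969) did not pass.

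The levels of single copies varied from library to library. Over 288 libraries Ccl21b and Ccl21c ran together (Pearson r = 0.995, a description across libraries that share tissues). In 68 libraries Ccl21d was under 1 TPM with Ccl21b at 1 TPM or more, in 145 the reverse held, in 75 both were at 1 TPM or more, and in 0 libraries were both under 1 TPM. These counts pool tissues that differ in them. Ccl21d was under 1 TPM in 0 libraries of lung and of muscle, and in normoxia lung both were at 1 TPM or more in 22 of 24. Whether 1 copy rises as another falls was not tested. In the heart Ccl21d was under 1 TPM in 0 normoxia and 9 IH libraries, and Ccl21b in 12 normoxia and 0 IH libraries. In the lung Ccl21b was under 1 TPM in 2 normoxia and 17 IH libraries. Counted together, Ccl21b, Ccl21c and Ccl21d made 79.8 ± 21.8 TPM in normoxia and 81.0 ± 25.1 TPM after IH in the lung, and 22.9 ± 8.08 and 36.2 ± 9.28 TPM in the heart. With all 4 copies summed as 1 row, an alternative added after the data were seen, the log2 difference was -0.23 in lung (limma adjusted p = 0.0393), 0.28 in heart (limma adjusted p = 0.00644) and -0.26 in muscle (limma adjusted p = 0.0320), and none was 1.5-fold. The levels and calls of single copies are uncertain, since near-identical copies may share reads, which was counted here for Ccl21a and Ccl21b only.

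**Figure D4:**
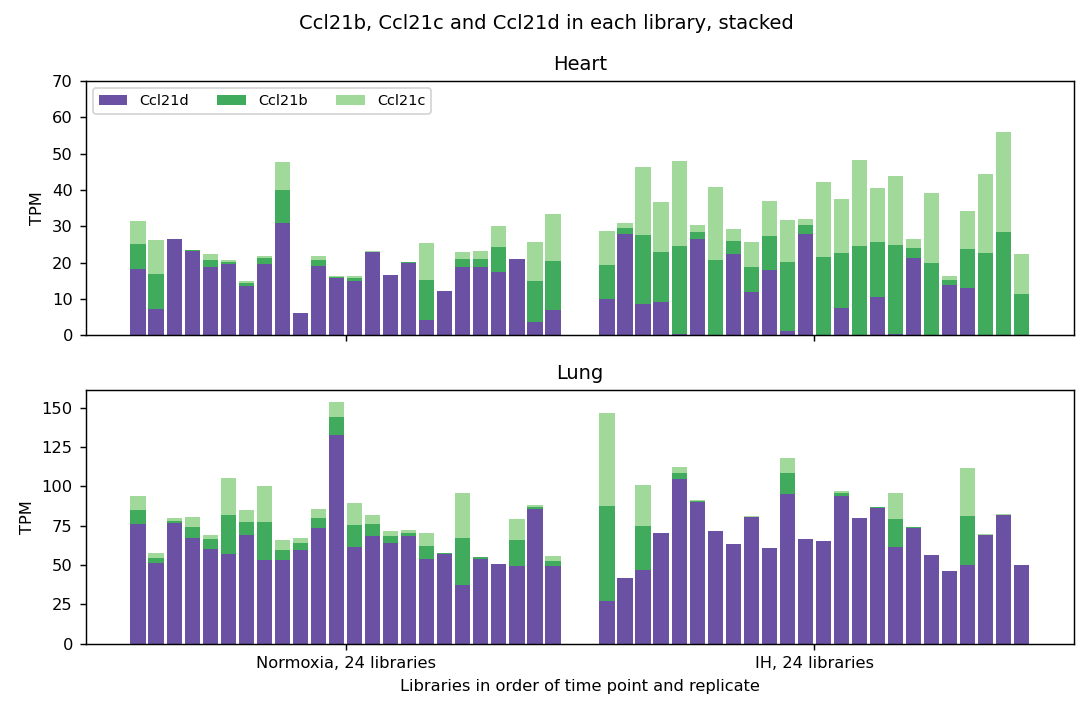
TPM of Ccl21d (purple), Ccl21b (dark green) and Ccl21c (light green), stacked, in each of 48 heart and 48 lung libraries, in order of time point and replicate. Libraries with little Ccl21d in heart carry Ccl21b and Ccl21c, and in lung Ccl21b was under 1 TPM in 17 of 24 IH libraries while the stacked total stayed alike (79.8 and 81.0 TPM).

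No other heart ligand reached 1.5-fold. Cxcl14 (0.30), Ccl24 (0.22), Cxcl12 (0.20) and Ccl27a (-0.33) passed the adjusted p alone, and with the called copies this made 7 of 23 ligands, against 45.2% of all genes. At the mean 25124 genes were detected in normoxia hearts (22988 to 28331) and 21447 after IH (20316 to 22793), with no overlap. With this number as a term limma called 0 ligands (6 at an unadjusted p under 0.05). That fit cannot show whether the heart calls depend on library properties, since the term could not be told apart from treatment. Within replicate number 1 there were 5 calls, and within numbers 2 and 3 there were 0. Without the thymocyte libraries the count was again 3, and Ccl25 (log2 difference -0.30, limma adjusted p = 0.00124) and Ccl5 (-0.44, limma adjusted p = 0.00803) then passed the adjusted p, below 1.5-fold.

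In the liver 1 of 18 ligands was called, on the higher side (3.66% of 11334 genes, 1.1% higher). Ccl6, a ligand made by myeloid cells, read 3.72, 6.27 and 16.4 TPM (lowest, median, highest) in normoxia and 4.65, 10.4 and 20.6 TPM after IH. It rose by a log2 difference of 0.71 (SE 0.161, limma adjusted p = 0.00121), higher at 8 of 8 time points, with overlapping groups. It was not called with TPM as deposited, nor without replicate number 1 or 2, and within replicate number 3 its log2 difference was -0.21. Ccl24 (0.50) and Cxcl16 (0.46) passed the adjusted p alone, which with Ccl6 made 3 of 18 ligands, against 24.2% of all genes. Beside these, the neutrophil markers S100a8 (0.75) and S100a9 (0.65), 4 kidney markers and 5 heart markers were called higher in the IH livers, and Alb, Fgb and Ahsg lower, and their part in the ligand values was not tested. Without the liver library that went against its label Ccl6 was again called (0.65, limma adjusted p = 0.00144).

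Kidney, muscle and cerebellum had 0 called ligands by limma, and 6, 6 and 1 ligands had an unadjusted p under 0.05. In the kidney 18 were tested (0.783% of all genes were called), and Ccl8 (-0.54), Cxcl9 (-0.44), Ccl9 (-0.33), Cxcl10 (-0.32) and Cxcl14 (-0.17) passed the adjusted p alone, all lower, which 19.8% of all genes passed in either direction. In muscle 21 were tested (0.374% of all genes called), with Ccl21d (-0.41), Ccl21a (-0.27) and Cxcl14 (-0.27) passing the adjusted p alone, which 10.4% of all genes did. In the cerebellum 13 were tested (2.64% of all genes called) and none passed even the adjusted p. Ccl27a read 220 ± 44.5 TPM there in normoxia and 282 ± 95.2 TPM after IH.

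The response itself was compared between tissues by an interaction test. Over 15 pairs of tissues 76 ligand responses differed at an adjusted p of 0.05. Between lung and liver 9 of 16 ligands differed (52.6% of all genes), between lung and kidney 7 of 16 (63.2%), between lung and muscle 9 of 20 (56.8%), between lung and heart 10 of 21 (65.2%) and between lung and cerebellum 6 of 13 (49.8%). Between liver and the rest, 3 of 15 differed against kidney (30.3%), 5 of 16 against muscle (22.1%), 6 of 18 against heart (35.2%) and 4 of 11 against cerebellum (22.3%). Heart differed in 6 of 17 from kidney (40.7%), in 7 of 21 from muscle (35.4%) and in 3 of 12 from cerebellum (27.9%). Muscle and cerebellum differed in 1 of 12 (19.4%), and kidney in 0 of 16 from muscle (20%) and 0 of 10 from cerebellum (12.8%) by limma, where 4 and 1 had an unadjusted p under 0.05. Ccl5 responded differently in lung than in liver, kidney and muscle, whereas its difference from heart (-0.49, SE 0.264, limma adjusted p = 0.0965) did not pass. That comparison included the heart libraries with thymocyte transcripts and was not run without them. Ccl4, Ccl22, Cxcl15 and Cxcl17 were under 1 TPM in the other tissues and could not be compared. The study collected all 6 organs from 3 mice per time point and condition, so libraries of different tissues share animals, whereas the model took them as independent.

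Few ligands followed a 24-hour cosine curve. Over 6 tissues and 2 treatments 9 ligand rhythms passed an adjusted p of 0.05 (F test of the cosine terms on TPM): Cxcl15 and Cxcl3 in lung, Ccl28 in liver and Ccl11 in muscle in both treatments, and Cxcl12 in muscle after IH. With a replicate number left out the count was 2 to 5. Over the alternatives that gave a value for it, Cxcl15 in normoxia passed in 7 of 7 and Cxcl15 after IH in 6 of 7, Ccl11 in 4 of 7 in normoxia and 5 of 7 after IH, Cxcl12 in 4 of 7, Ccl28 in 4 of 5 and 3 of 5, and Cxcl3 in 3 of 5 in both. In normoxia these were 2 of 35 ligands in lung (2.99% of all genes), 1 of 29 in liver (8.56%) and 1 of 25 in muscle (0.87%). After IH they were 2 of 35 (4.46%), 1 of 29 (2.86%) and 2 of 25 (2.28%). No ligand rhythm was called in kidney (8.49% and 1.19% of all genes), heart (0.285% and 1.21%) or cerebellum (0% and 0.00468%). At an unadjusted p of 0.05, in normoxia and after IH, there were 4 and 3 of 23 ligands in kidney (3314 and 1338 of 14706 genes). Heart had 0 and 5 of 31 (619 and 1737 of 15770 genes), and cerebellum 8 and 0 of 29 (4144 and 365 of 21372 genes). The heart libraries with thymocyte transcripts, which include all 3 after IH at 10:30, entered this test.

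Of these rhythms, that of Cxcl15 in lung had the largest amplitude in TPM and the lowest adjusted values. Its time-point means in normoxia fell from 954 ± 98.8 TPM (SD, n = 3) at 4:30 to 342 ± 28.1 TPM at 13:30 and were back at 881 ± 36.1 TPM at 22:30. After IH they fell from 874 ± 293 TPM at 1:30 to 285 ± 56.2 TPM at 13:30. The MESOR, the mean of the fitted curve, was 672 TPM in normoxia and 549 TPM after IH. The amplitude was 292 ± 30.5 TPM (SE) in normoxia (43.5% of the MESOR, cosine F test over all genes, Benjamini-Hochberg adjusted value 3.12e-05) and 303 ± 43.2 TPM after IH (55.1%, adjusted value 0.000789). The acrophase, the time of the fitted peak, was 1.74 hours and 1.36 hours.

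Ccl11 in muscle peaked at other hours. Its means ran from 25.1 ± 8.25 TPM at 1:30 to 41.8 ± 6.57 TPM at 10:30 in normoxia, and from 51.2 ± 7.92 TPM at 7:30 to 27.3 ± 3.73 TPM at 19:30 after IH. Amplitudes were 7.93 ± 1.56 and 10.8 ± 1.80 TPM and acrophases 10.0 and 8.16 hours. Cxcl12 in muscle had an amplitude of 11.9 ± 2.71 TPM after IH (adjusted value 0.0493) and of 4.80 ± 3.44 TPM in normoxia (adjusted value 0.910). The rhythms of Cxcl3 in lung (MESOR 0.248 and 0.426 TPM) and of Ccl28 in liver (0.421 and 0.553 TPM) were at levels under 1 TPM. The amplitude of Cxcl3 was 63.7% of its MESOR in normoxia and 76.3% after IH, a larger share than for Cxcl15.

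**Figure D5:**
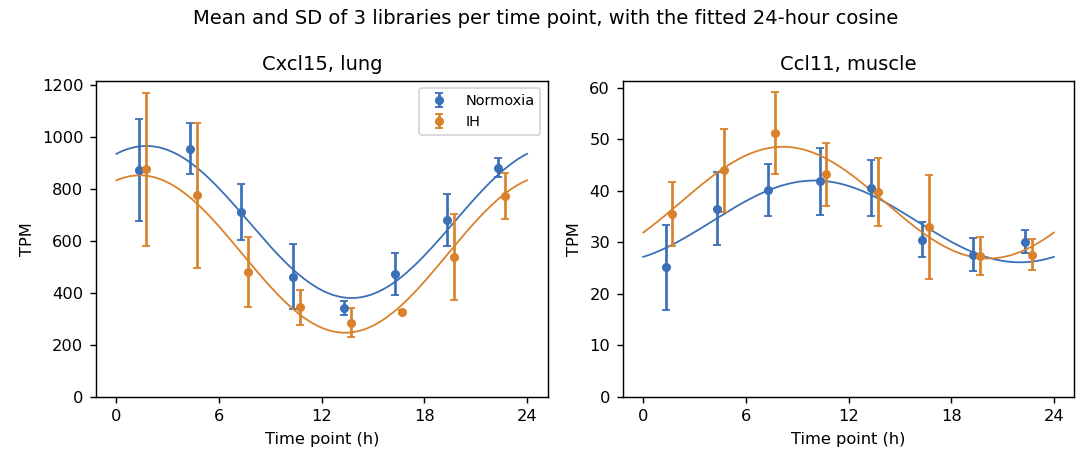
TPM of Cxcl15 in lung and Ccl11 in muscle over time of day (h), mean and SD of 3 libraries per time point, with the fitted 24-hour cosine, in normoxia (blue) and after IH (orange); points of the treatments are set slightly apart for legibility. Cxcl15 is lowest at 13:30 in both treatments, while Ccl11 peaks at 10:30 in normoxia and at 7:30 after IH.

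The difference of the curves between treatments passed for 0 ligands in all 6 tissues, while over all genes 1 passed in muscle (0.00659%) and 0 elsewhere. At an unadjusted p of 0.05 the cosine F test gave 1 of 35 ligands in lung (795 of 20106 genes) and 1 of 29 in liver (230 of 14482 genes). It gave 5 of 25 in muscle (388 of 15181 genes) and 4 of 29 in cerebellum (1527 of 21372 genes). In kidney it gave 0 of 23 (162 of 14706 genes) and in heart 0 of 31 (178 of 15770 genes). For Cxcl12 in muscle the unadjusted F test of the difference over all libraries of that tissue gave 0.261, so that its curve was not shown to differ between normoxia and IH.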

How the data were processed

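Poly(A) RNA of 6 tissues was sequenced as stranded libraries. The authors quantified reads with Kallisto against Ensembl release 102 and deposited TPM per gene; the submitters' processing notes also name bcl2fastq, FastQC 0.11.3, DESeq2 and mm10. Libraries summed to 989211 to 999188 TPM, and 0 were identical. Counts are not analysed here, so depth and its precision are unknown.

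For mean 24-hour expression, TPM was scaled by the median of ratios, and log2(TPM + 0.5) was fitted with limma 3.58.1 (R 4.3.3, trended prior variance, treatment alone, 2-sided) where the mean reached 1 TPM; a fold on this scale understates the change of low genes. A gene was called at a Benjamini-Hochberg adjusted p of 0.05 over all genes of the tissue and 1.5-fold. Tissue levels in normoxia used TPM as deposited, and responses were compared over 15 tissue pairs. Rhythm was tested as a cosine with a period of 24 hours where the highest value reached 1 TPM (Python 3.11.15, numpy 2.4.6, scipy 1.17.1), since the rhythm programs of the study were not installed. Both procedures were tested on simulated data. The 3 libraries of a time point and treatment come from separate mice per the methods of the study, and all 6 organs were taken from these mice. Which libraries share a mouse is not given in the sources used here, and tests across tissues took libraries as independent.

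Named are ligands called in any test, the 3 most abundant per tissue in normoxia and those higher in 1 tissue than in the rest; others are given by counts, with values where the adjusted p alone passed, chosen after values were seen. The members and the lists of receptors and cell markers were chosen with earlier results of these data known. Alternatives were other pseudocounts, filters and scaling, further terms, single libraries or replicate numbers left out, and values within a replicate number; those added after seeing the data were the last, the heart without thymocyte libraries and the Ccl21 sum. Upstream windows and Ccl21d come from RefSeq (GRCm38.p6), transcripts from GENCODE M21. Lists of lymphatic endothelium, fat cells and fibroblasts were also fixed: in the lung 1 of 5, 0 of 6 and 1 of 6 genes tested were called, all lower.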

Additional observations from a re-analysis of the deposited data

Results flagged for a closer look

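The responses below differed between tissues by the interaction test, given as the log2 response of the first tissue minus that of the second. Ccl5 fell further in the lung than in liver (-0.953), kidney (-0.705) and muscle (-0.696). Ccl25 rose in the lung relative to liver (0.443), kidney (0.619), muscle (0.423) and cerebellum (0.651), while the difference from heart (0.75, SE 0.444, limma adjusted p = 0.130) did not pass. The heart values here included the thymocyte libraries. Without them the IH response of Ccl25 in heart was -0.30 (SE 0.0766), and its comparison with lung was not run again. With genes detected per library in the model, Ccl25 was not called in lung. Ccl6 rose in the liver relative to kidney (0.755), muscle (0.710), heart (0.604) and cerebellum (0.763), while its difference from lung (0.37, limma adjusted p = 0.108) did not pass. Ccl21b and Ccl21c had opposite signs in heart and lung, with a heart minus lung difference of 4.52 and 4.41. Ccl21d had a heart minus lung difference of -1.70, with a response of -1.92 in heart. Its response in lung (-0.22, limma adjusted p = 0.0969) did not pass. The levels of these near-identical copies are uncertain.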

How the results depend on the processing

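The lung count of 8 called ligands was 6 to 11 over the alternatives. The liver count of 1 was 0 with TPM as deposited, 0 to 3 with a replicate number left out (0 without number 1 or 2), and 5, 3 and 0 within numbers 1, 2 and 3. The kidney count of 0 was 2 with a pseudocount of 0.1, 1 with genes detected as a term, 0 to 2 with a replicate number left out and 5 within number 3. The muscle count of 0 was 1 with TPM as deposited. The heart count of 3 was 0 with genes detected as a term, 2 to 5 with a replicate number left out, and 5, 0 and 0 within numbers 1, 2 and 3. In the heart that term could not be told apart from treatment, since the ranges of genes detected did not overlap. In the cerebellum leaving out a number gave 0 to 1. The 76 differences between tissues became 40 with genes detected as a term and 26 to 85 with a number left out. The 9 rhythms became 17 on log2 of scaled TPM, 14 with the replicate block and 2 to 5 with a number left out, where fewer libraries enter. Rhythm differences were 0 in every alternative. The count of ligands with a leading tissue was 21 to 24. Reversed values were Ccl22 (0.0399) and Cxcl17 (0.0675) in lung with genes detected as a term and Ccl6 in liver (-0.21) within number 3; the cause was not tested.

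Same-numbered libraries of the 2 treatments deviated together (r over 0.1) in 5 to 16 of 24 pairs per tissue. The highest counts were in liver (16, median r 0.22) and muscle (12, median r 0.10), where a part of the replicate number was not excluded. The numbers were not taken as pairs in the main fit of any tissue. With the replicate block the counts were 8 in lung, 1 in liver, 3 in heart, 0 in the other tissues, 76 between tissues, 23 for leading tissues and 0 for rhythm differences. Of single values, 143 for the response to IH kept direction and side of the threshold, 36 fell short of it and 3 reversed; for rhythms 39 kept it and 16 fell short, and for tissue levels 172 and 12. Depth is unknown, so ligands near 1 TPM carry a counting error that could not be given.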

Other observations

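One muscle library (IH, 16:30, replicate 2) held 391 TPM of Ccl8, a monocyte attractant, while the other 23 muscle libraries after IH held 1.79 to 77.1 TPM with a median of 8.75 TPM. The same library had the highest values of its group for Ccl12 (12 TPM against at most 4.26), Ccl7 (10.4 TPM against at most 5.03) and Cxcl13 (22.1 TPM against at most 8.57). Ccl2 (4.94 TPM) and Ccl11 (39.8 TPM) lay within the range of the others. Its summed skeletal muscle markers (72926 TPM) were the lowest of the 48 muscle libraries (median 110346 TPM), and their part in these values was not tested. These genes were picked after their values were seen.

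In the lung, 10 ligands lay under a mean of 1 TPM over all libraries and were not tested. Among them Ccl28 read 0.465 ± 0.109 TPM in normoxia and 1.06 ± 0.503 TPM after IH, and 20 of 24 IH libraries lay above the highest normoxia library. Cxcl2 read 0.203 and 0.406 TPM and Cxcl3 0.248 and 0.426 TPM, each higher after IH at all 8 time points in TPM as deposited. Ccl28 and Cxcl11 were also higher at 8, Cxcl1 at 7, Cxcl9 at 5, Ccl20 at 4, Ccl26 and Ccl27b at 3 and Ccl1 at 2. On that scale the median log2 difference of all lung genes tested was itself 0.21. The share of all lung genes with such patterns was not counted. Lung libraries after IH also had more genes detected, and its part in these values was not tested.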
